A study of Mus musculus with 7 samples.

Results

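Late neutrophil genes are the genes that a maturing neutrophil switches on after its first granules have formed. Here they are S100a8, S100a9, Ltf, Camp, Ngp, Lcn2, Fcnb, Mmp8, Padi4 and Cxcr2, 10 of 20661 autosomal protein-coding genes in the RefSeq table used. The members are the distinct intervals, in 5 deposited peak lists, that overlap one of these genes or lie within 20 kb of either gene end (mm10). There were 54 of them among 105707 distinct intervals in all lists.

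The cells were sorted common monocyte progenitors (cMoPs) of mouse bone marrow, committed precursors of monocytes. The mice carried the variant labelled DE or the WT form of an enhancer placed −165 kb from Zeb2, which encodes a repressor that binds E-boxes. CUTAC, which places a tagmentase beside an antibody and cuts accessible DNA at low salt, was run for H3K4me2 in 2 DE and 2 WT libraries of batch 2 and for H3K4me3 in 1 WT library of batch 1. A WT IgG library of cMoPs and a WT H3K4me3 library of cells labelled MDP were not analysed here. The labels used do not expand DE, and give neither the age of the mice nor whether replicates came from separate animals, so p-values measure only the spread between these libraries.

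Neutrophils fill their granules in order. Primary granules with proteases and myeloperoxidase come first, in progenitors shared with monocytes, and secondary and tertiary granules follow in later neutrophil stages, driven by factors such as C/EBPε. The secondary and tertiary granule proteins include lactoferrin (Ltf), the cathelicidin peptide precursor (Camp), the cathelin-related neutrophilic granule protein (Ngp), the siderophore-binding lipocalin 2 (Lcn2) and neutrophil collagenase (Mmp8). S100A8 and S100A9 form the cytosolic calcium-binding dimer calprotectin. H3K4me2 marks promoters and enhancers, also of genes that are poised, and H3K4me3 marks active promoters.

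Promoters of 4 members are shown first, because the few calls that overlap a member's promoter lie on the first 3 and S100a9 is the uncalled partner of S100a8. Ltf is not shown, since its call near the start, in WT replicate 1, lies 648 to 722 bp after it. Each of the 4 promoters runs 5′ to 3′ on the gene's strand, from 250 bases before the start to 50 after it (RefSeq, GRCm38.p6, the mm10 build). S100a8 is chr3:90668821-90669120, plus strand; Lcn2 is chr2:32387690-32387989, minus strand; Cxcr2 is chr1:74153744-74154043, plus strand; S100a9 is chr3:90695672-90695971, minus strand. Capitals mark CACCTG, the type of E-box that ZEB factors bind, AGGAAG, a PU.1 core, and TTGCNNAA, the C/EBP letters, each on either strand.
S100a8: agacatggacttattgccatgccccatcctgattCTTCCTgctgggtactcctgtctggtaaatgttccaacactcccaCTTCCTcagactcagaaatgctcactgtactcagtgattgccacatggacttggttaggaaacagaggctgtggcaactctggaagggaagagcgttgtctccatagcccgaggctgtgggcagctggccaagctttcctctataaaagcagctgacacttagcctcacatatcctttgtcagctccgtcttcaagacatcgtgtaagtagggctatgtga
Lcn2: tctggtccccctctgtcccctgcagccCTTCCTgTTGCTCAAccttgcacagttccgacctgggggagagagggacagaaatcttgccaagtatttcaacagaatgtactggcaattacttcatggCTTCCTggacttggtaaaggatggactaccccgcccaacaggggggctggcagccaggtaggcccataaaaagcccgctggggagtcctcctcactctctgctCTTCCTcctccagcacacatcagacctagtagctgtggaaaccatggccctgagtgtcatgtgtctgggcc
Cxcr2: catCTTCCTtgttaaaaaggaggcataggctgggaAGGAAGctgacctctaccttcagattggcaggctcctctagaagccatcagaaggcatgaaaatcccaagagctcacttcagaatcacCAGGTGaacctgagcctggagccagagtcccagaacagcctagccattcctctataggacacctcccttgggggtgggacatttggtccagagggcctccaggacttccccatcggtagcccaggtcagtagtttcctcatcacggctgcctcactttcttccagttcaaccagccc
S100a9: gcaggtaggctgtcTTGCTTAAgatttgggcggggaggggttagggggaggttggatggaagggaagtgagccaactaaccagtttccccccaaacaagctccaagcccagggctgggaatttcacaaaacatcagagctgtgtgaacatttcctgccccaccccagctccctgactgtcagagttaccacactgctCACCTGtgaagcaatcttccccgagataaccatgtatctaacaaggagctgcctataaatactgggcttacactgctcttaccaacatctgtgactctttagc

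All 10 members had promoters poor in CpG dinucleotides, as these 4 are. The 300-base promoters of the 10 genes held 2 to 8 CpG (median 3), against a median of 14 over 16456 autosomal genes with a promoter in the table. Their GC content was ordinary, 46% to 66.3% (median 54.5%), against a median of 56.7% over all genes. Padi4 had the 8, and the other 9 members had 2 to 4.

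CACCTG was found in 4 of the 10 promoters (S100a9, Ltf, Padi4 and Cxcr2) and in 20.2% of 32817 promoters of the same length. Any E-box, CANNTG, which includes CACCTG, was in 8 of 10 and in 72.3% of all. AGGAAG was in 8 of 10, against 35.4% of all, and TTGCNNAA in 6 of 10 (S100a9, Ltf, Ngp, Lcn2, Fcnb and Mmp8), against 10.8% of all. These matches describe letters in a window and are not binding sites, and no test was run on the shares. The 32817 promoters were not limited to CpG-poor ones, so the shares are not matched to the members in CpG. S100a8 held 2 AGGAAG cores, Lcn2 held 3 with 1 TTGCNNAA, and Cxcr2 held 2 with 1 CACCTG.

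The H3K4me2 lists held 21968 and 17079 peaks in DE replicates 1 and 2 and 32354 and 28152 in WT replicates 1 and 2, and the H3K4me3 list held 6425. Because the lists differ in length, some results are also given with each list limited to the length of the shortest. In the list of DE replicate 1 the header and peak names read DE replicate 2, and its sample was taken from the series record. In all 4 H3K4me2 lists, calls within 1 kb of a gene end were present at Csf1r, Ly6c2, Irf8, Klf4, Kit and Flt3. These are 6 of 8 genes listed for monocytes and their progenitors, and not all of the 8, such as Flt3, mark cMoPs themselves. Cx3cr1 was called in the WT pair alone, and Ccr2 in none. Of 16 markers of B cells, T cells, mast cells with basophils and erythroid cells, 3 and 1 were called in DE replicates 1 and 2 and 1 in each WT replicate, 0 in all 4 lists and 12 in none. One of them, the erythroid factor gene Klf1, was called in both DE libraries and in neither WT library. Of 4 dendritic cell markers, Xcr1 alone was called, in all 4 lists.

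Most calls in the windows of the late neutrophil genes were nearest to neighbouring genes. The 10 windows held 14 and 11 intervals in DE replicates 1 and 2, 16 and 11 in WT replicates 1 and 2, and 2 for H3K4me3. Of the 52 H3K4me2 intervals, 40 were nearest to an end of another protein-coding gene and 12 to an end of a late neutrophil gene. S100a9, Mmp8 and Padi4, the enzyme that citrullinates histones in neutrophils, had no interval in any list. The same was true of 23.4% of all genes in the H3K4me2 lists.

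**Figure D1:**
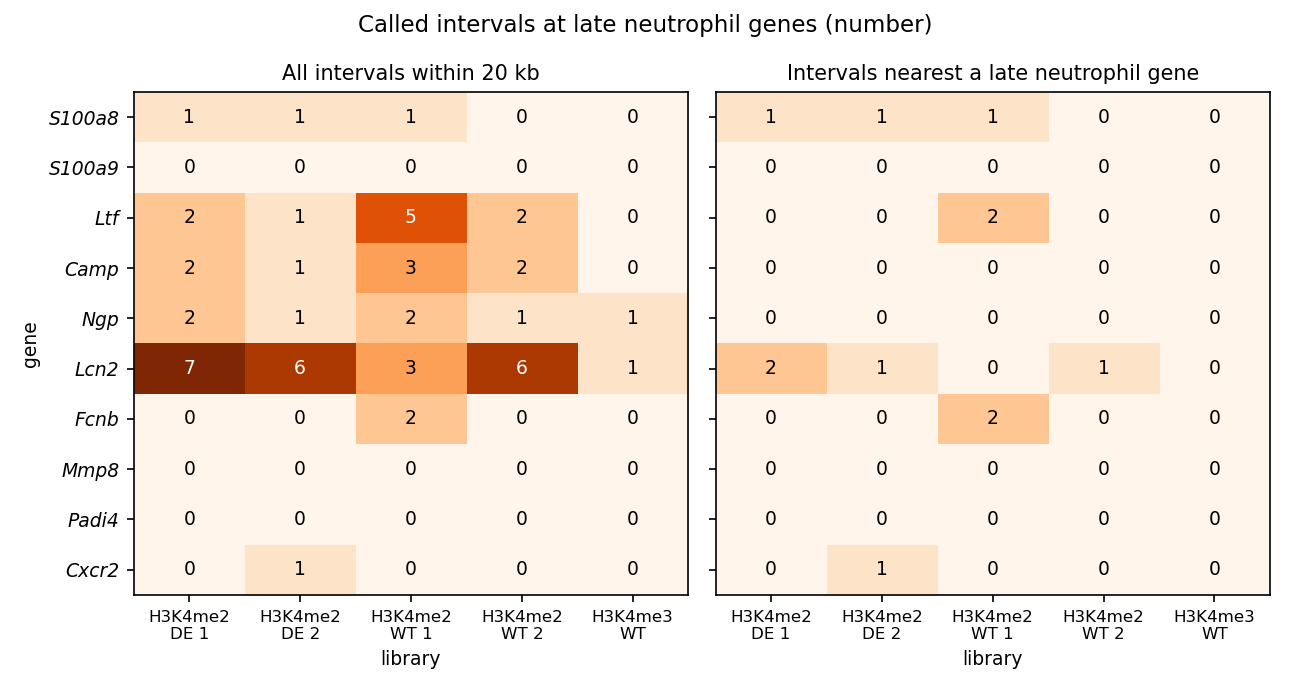
Number of called intervals for each gene (rows) in each library (columns), within 20 kb (left) and only those whose nearest protein-coding gene end is that of a late neutrophil gene (right). Lcn2 holds 7 and 6 intervals in the DE libraries and 3 and 6 in the WT libraries on the left, and 2 and 1 in DE and 0 and 1 in WT on the right.

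At least 1 interval was called in 5 and 6 of the 10 windows in DE replicates 1 and 2 and in 6 and 4 in WT replicates 1 and 2, and in 2 for H3K4me3. Of all genes, 65.7% and 60% had one in DE replicates 1 and 2, 72.2% and 69.7% in WT replicates 1 and 2, and 33.8% for H3K4me3. The number of intervals averaged 12.5 ± 2.12 in DE and 13.5 ± 3.54 in WT (SD, n = 2 each), a difference of −1 interval (exact two-sided permutation p = 1). With each list limited to its strongest 17079 peaks, the direction turned, with 13 and 11 intervals in DE and 9 and 5 in WT, a difference of 5. The exact permutation p was then 0.333, the smallest that 2 against 2 libraries allow. The cut removes the weakest calls of the longer lists, most of all in WT. Shares of all genes under the cut are not given, so the turn is not shown to be particular to these genes.

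In the whole lists, calls near the genes' own ends differed in direction from the window counts. With lists of equal length both were higher in DE. A call within 1 kb of a gene end was present at 2 and 3 of the 10 genes in DE replicates 1 and 2 and at 1 in each WT replicate. It was present at 46.2% and 41.6% of all genes in the DE lists and 49.5% and 50.5% in the WT lists. Both DE libraries thus had more such genes than both WT libraries, 2.5 ± 0.707 in DE against 1 ± 0 in WT (SD, n = 2 each), a difference of 1.5 genes (exact two-sided permutation p = 0.333, the smallest possible). All of these calls were weak: with −log10 q held to 5 or more, the number was 0 in each of the 4 libraries. Within 2 kb of a gene end the numbers were 2 and 3 in DE replicates 1 and 2 and 2 and 1 in WT replicates 1 and 2. DE replicate 1 and WT replicate 1 were then equal (exact two-sided permutation p = 0.667). None of the 10 genes had a gene-end call in all 4 lists, against 39.1% of all genes. Of 6500 genes with at most 8 CpG in the promoter, the most that any member held, 6.97% had a call within 1 kb of the start in all 4 lists. No gene end of the 10 carried an H3K4me3 call, against 21.6% of all genes.

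S100a8, the smaller calprotectin subunit, was called at its start in both DE libraries and in neither WT library. The interval ran from 145 bp before to 255 bp after the start in DE replicate 1 (chr3:90668926-90669326) and from 148 bp before to 110 bp after it in DE replicate 2 (chr3:90668923-90669181). Its fold over the local background, the authors' value within each list, was 5.34 in DE replicate 1 and 4.42 in DE replicate 2. The −log10 q was 4.92 and 3.11 in the same libraries, and the place by −log10 p was at 52.6% and 69.3% of the lists, so both calls sat in the weaker part. Each summit held 15 fragments, a number inferred from the deposited fold and p.

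The merged S100a8 region, 404 bp long, was the only one of 23 late neutrophil regions with this pattern, which 1.1% of 39395 autosomal regions had. At gene ends the pattern was held by 1 of the 10 genes and by 0.223% of all genes (46), and its opposite, calls in the WT pair alone, by 0 of the 10 and 3.03% of all. The erythroid marker Klf1 was another of the 46, while the erythroid markers Gata1 and Hbb-bt had no call and Epor was called in WT replicate 2 alone. The part of erythroid cells in the S100a8 calls was not tested. In WT replicate 1 a separate interval of 131 bp lay 1633 bp before the start, with a fold of 3.504, a −log10 q of 2.11 and 3 fragments at its summit. WT replicate 2 had no interval in the window. Limiting lists to equal length can only remove calls, and the list of DE replicate 2 is already the shortest. Only the call of DE replicate 1 at the start could thus change, and it remained. S100a9, the other calprotectin subunit, lies on the same chromosome at 90692630 to 90695721 and had no call.

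Lcn2, which starves bacteria of iron by binding their siderophores, was called just before its start in both DE libraries and in WT replicate 2. This region of 217 bp, chr2:32387820-32388036, lay 81 bp from the gene end and covered part of the promoter printed above. The fold was 5.14 and 4.70 in DE replicates 1 and 2 and 5.002 in WT replicate 2, with −log10 q of 3.39 and 2.26 in DE and 2.97 in WT. The summits held 9 and 10 fragments in DE and 7 in WT, and WT replicate 1, which has the longest list, had no call there. These values hold within each list and do not compare the genotypes. The call in WT was at 82.4% of its list, beyond the length of the shortest list. DE replicate 1 alone had a second interval from 25 to 261 bp after the start, with a fold of 5.58 and 9 fragments.

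Cxcr2, the chemokine receptor that draws mature neutrophils out of the marrow, was called in DE replicate 2 alone. The interval of 130 bp, chr1:74153929-74154058, spanned the start from 65 bp before to 64 bp after it, with a fold of 5.02, a −log10 q of 3.38 and 9 fragments at the summit. It was the single call of the gene in any list.

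**Figure D2:**
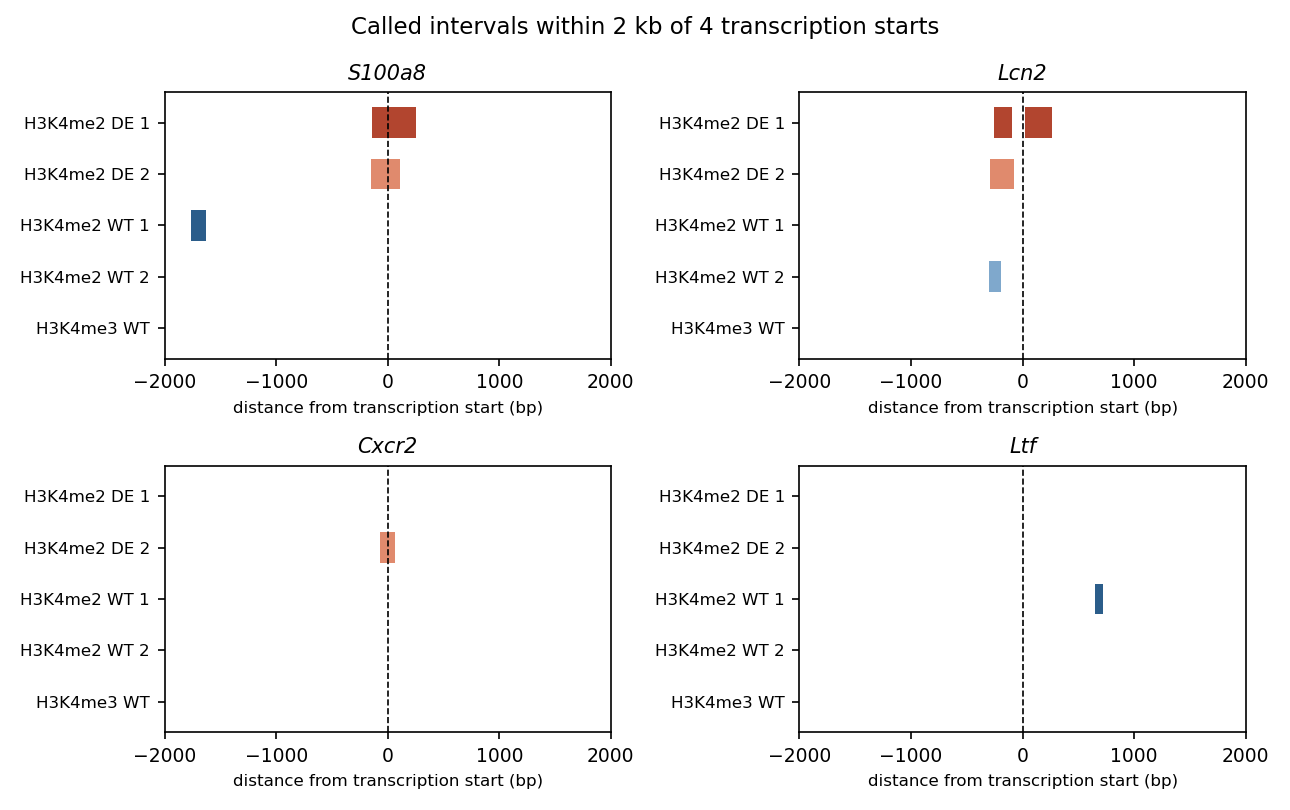
Called intervals (bars) within 2 kb of the transcription starts (dashed lines) of S100a8, Lcn2, Cxcr2 and Ltf, one row per library, with distance in bp along the gene's strand. Bars cross or lie within 300 bp of the S100a8 and Lcn2 starts in both DE libraries, and WT replicate 2 has a bar at Lcn2. WT replicate 1 has a bar 1633 bp or more before the S100a8 start and another 648 bp or more after the Ltf start. DE replicate 2 has a bar at Cxcr2, and the H3K4me3 rows are empty.

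Ltf, the iron-binding protein of secondary granules, was called near its own start in WT replicate 1 alone. The interval of 75 bp lay 648 to 722 bp after the start, inside the gene, with a fold of 4.10, a −log10 q of 2.30 and 7 fragments. A second interval of WT replicate 1 lay 8150 bp before the start, with a fold of 4.38 and 4 fragments. Fcnb, the lectin ficolin B, had 2 intervals in WT replicate 1 alone, 4908 and 7369 bp from a gene end, of 75 and 74 bp, with −log10 q of 1.36 and 4.33 and with 3 and 11 fragments.

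Most regions nearest to a late neutrophil gene were called in a single list. Of the 9 merged regions nearest to a late neutrophil gene, 7 were called in 1 list, 1 in 2 lists (S100a8), 1 in 3 lists (Lcn2) and 0 in all 4. Of the 7, DE replicate 1 held 1, DE replicate 2 held 1 and WT replicate 1 held 5. Only 5 of the 9 regions lay within 1 kb of the gene end, and 3 of these 5 were called in a single list. Over all regions, 42.5% were called in 1 list alone and 30.2% in all 4. The 14 regions nearest to other genes included 4 called in all 4 lists and 2 with an H3K4me3 call.

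No late neutrophil region was called in the WT pair alone, a pattern that 8.77% of all regions had. These counts depend on single libraries. With WT replicate 1 standing alone for WT, 7 of 23 regions were called only in WT and 4 only in DE. Without DE replicate 1 the numbers were 3 only in DE and 2 only in WT, without DE replicate 2 they were 4 and 1, and without WT replicate 1 they were 1 and 0.

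The regions called in all 4 lists lay at the starts of neighbours. At Lcn2 these were chr2:32381768-32382282 over the start of 1110008P14Rik and chr2:32395484-32396797 over the start of Ptges2, a prostaglandin E synthase. The first had folds of 13.0 and 7.38 in DE replicates 1 and 2 and 17.9 and 22.8 in WT replicates 1 and 2. Its −log10 q was 38.4 and 14.4 in DE and 36.5 and 71.9 in WT, and it stood within the top 2.06% and 12.5% of the DE lists and the top 2.10% and 1.30% of the WT lists. Folds are relative to the background of each library, so these values do not compare the genotypes.

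At Camp the shared region was chr9:109832671-109833078 over the start of Nme6, a nucleoside diphosphate kinase gene, 16378 bp or more downstream of the Camp start. A second region near the other end of Nme6, chr9:109843214-109843714, lay 5742 bp or more downstream of the Camp start and was called in DE replicate 1 and both WT libraries. Its folds were 6.003 in DE replicate 1, 8.50 in WT replicate 1 and 5.62 in WT replicate 2. No call was nearest to Camp itself.

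At Ngp the shared region was chr9:110408073-110408418 over the start of the phosphatase gene Ptpn23, with its far edge 11735 bp before the Ngp start. Its fold was 4.204 and 3.87 in DE replicates 1 and 2 and 7.22 and 7.52 in WT replicates 1 and 2, and it also carried an H3K4me3 peak with a fold of 3.97. The other H3K4me3 peak of the windows lay at Ptges2, with a fold of 7.33. Around Ltf, 10 intervals were called in all H3K4me2 lists together, of which 8 lay at Ccrl2, a chemokine receptor-like gene of myeloid cells. Each of the 4 lists had a call within 1 kb of the Ccrl2 start, but no region was shared by all 4. Both WT lists shared chr9:111056864-111057079 with DE replicate 2 and chr9:111057448-111057586 with DE replicate 1.

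**Figure D3:**
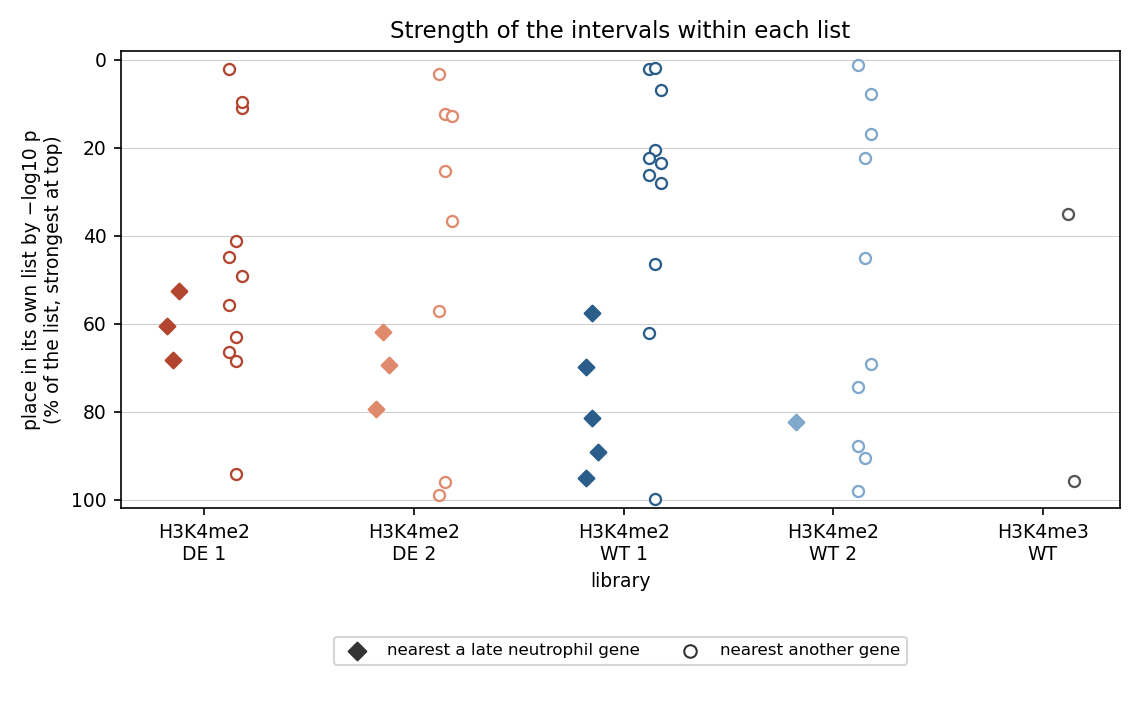
Place of each interval in its own list by −log10 p (percent of the list, strongest at the top) for each library, as diamonds for intervals nearest a late neutrophil gene and circles for intervals nearest another gene. The diamonds start at 52.6% and 62.0% in DE replicates 1 and 2 and at 57.6% and 82.4% in WT replicates 1 and 2, while the highest circles stand at 2.06%, 3.37%, 1.97% and 1.30% in the same libraries.

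Every call nearest to a late neutrophil gene stood in the weaker part of its list. The 3 in DE replicate 1 stood at 52.6% to 68.3%, the 3 in DE replicate 2 at 62.0% to 79.4%, the 5 in WT replicate 1 at 57.6% to 95.2% and the single one in WT replicate 2 at 82.4%. In each of these 4 libraries the strongest interval of the windows belonged to 1110008P14Rik or Ptges2. Places in lists of different lengths show no change between genotypes.

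The 4 neighbours whose start lay in a region called in all 4 lists had more CpG in their promoters than any late neutrophil gene. 1110008P14Rik held 29 CpG, Ptpn23 25, Ptges2 18 and Nme6 17 in 300 bases. Ccrl2, called within 1 kb of its start in all 4 lists though in no region shared by all 4, held 6, within the range of the members. The promoter of Ptges2, chr2:32395640-32395939, plus strand, shows the contrast with its neighbour Lcn2 (3 CpG, printed above). Capitals mark its CpG dinucleotides.
Ptges2: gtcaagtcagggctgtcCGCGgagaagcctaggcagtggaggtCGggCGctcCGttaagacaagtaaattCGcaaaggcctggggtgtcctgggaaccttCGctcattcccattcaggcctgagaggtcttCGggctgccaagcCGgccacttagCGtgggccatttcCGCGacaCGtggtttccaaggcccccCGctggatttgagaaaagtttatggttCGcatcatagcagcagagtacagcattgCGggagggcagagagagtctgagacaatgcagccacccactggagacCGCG

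Across all genes, calls at starts followed the same property. Of 6500 genes with at most 8 CpG in the promoter, the highest number among the members, 10.2% and 8.52% had a call within 1 kb of the start in DE replicates 1 and 2, 11% and 12% in WT replicates 1 and 2, and 2.88% for H3K4me3. Of the 9956 genes with more CpG, the shares were 72.4% and 65.9% in DE, 77.4% and 78.4% in WT, and 35.9% for H3K4me3. Of the 10 late neutrophil genes, 2 and 3 had a call at the start in DE and 1 and 1 in WT. Among the CpG-poor genes, 85.6% had no call at the start in any H3K4me2 list, against 6 of the 10 members. S100a8 was 1 of 13 CpG-poor genes (0.2%) called at the start in both DE and neither WT library, and 76 (1.17%) had the opposite pattern. The bound of 8 was set by the members themselves, and no test was run on these shares.

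**Figure D4:**
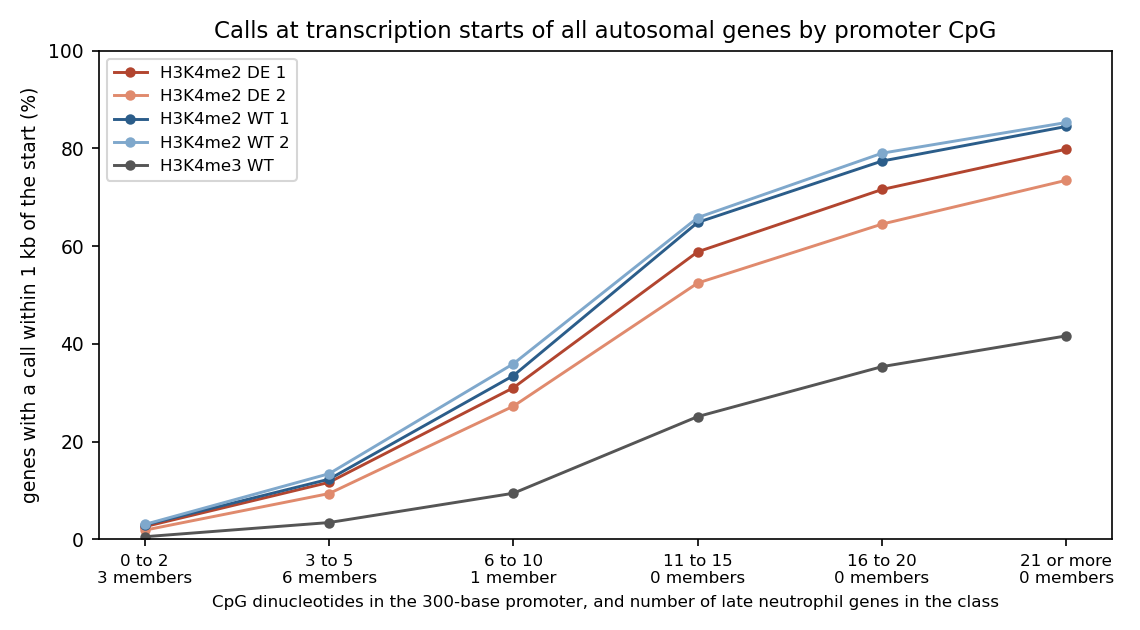
Percent of 16456 autosomal genes with a call within 1 kb of the transcription start, in classes of CpG dinucleotides in the 300-base promoter, one line per library, with the number of late neutrophil genes in each class below the axis. Shares climb from 2.61% and 1.89% in DE replicates 1 and 2 and 2.97% and 3.07% in WT replicates 1 and 2 in the lowest class to 73.5% or more in the highest, and 9 of the 10 late neutrophil genes fall in the lowest pair of classes.

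Of 20 further late neutrophil genes, 6 and 5 were called at a gene end in DE replicates 1 and 2, 4 and 5 in WT replicates 1 and 2, and 1 for H3K4me3. Of all genes, 46.2% and 41.6% were called in the DE lists, 49.5% and 50.5% in the WT lists and 21.6% for H3K4me3. Hp (haptoglobin), Ltb4r1 (a leukotriene B4 receptor) and Lyz2 (lysozyme, also of monocytes) were called in all 4 H3K4me2 lists, and 13 genes in none of them, among them Mmp9, Cd177, Ly6g, Chil3, Olfm4 and Cxcr1. None of the 20 had the pattern of S100a8 or its opposite in the whole lists. With lists of equal length Cebpe, which encodes C/EBPε and was called in both DE libraries and WT replicate 2 in the whole lists, took the S100a8 pattern. Among 5 genes of the primary granule stage, Mpo, Elane, Prtn3 and Ctsg of the primary granules were called in all 4 lists and Ms4a3 in DE replicate 1 and WT replicate 2, and all 5 carried H3K4me3. No test of the difference between these gene lists was run. Ly6g, a defining surface marker of neutrophils, had no call in any list, and neither had S100a9. Others of the 20, Pglyrp1, Csf3r, Cebpe and Trem1, were called in some of the 4 lists. The primary granule genes were called in both genotypes. The erythroid marker Klf1 was called in the DE pair alone, as S100a8 was. These marker calls stand beside the DE calls at S100a8, and the part of other cells of the sort in them was not tested.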

How the data were processed

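Peak lists of 5 libraries were analysed. Per the submitters' processing notes, peaks come from MACS2 (version 2.2.9.1) on mm10, and Trimmomatic, Bowtie2, Picard and SAMtools were also used. Settings, control and duplicate handling are not stated there. Per summit, each deposited list holds a score (10 times the −log10 q, as a whole number), the fold over local background (a linear ratio within that library) and −log10 p and −log10 q, all the authors' own values, used only within a list. Peaks were called per library. The lowest −log10 q was 1.00 to 1.02.

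Entries sharing an interval were counted once, by their strongest p, on the 19 autosomes, X and Y. Regions are merged unions of touching or overlapping autosomal intervals of the 4 H3K4me2 lists, called with at least 1 bp shared. Gene bounds, starts and promoters came from RefSeq tables of GRCm38.p6, in which all 10 members and all genes of the other lists matched by symbol. The nearest gene was the protein-coding gene with the nearest end. The lists give no read totals, so depth is unknown. Fragments at a summit were solved from fold and p, assuming the caller's formulas, as whole multiples (within 0.01) of one unit per list; they are not scaled to depth, and summits over a background of 1 were called with no fewer than 8 and 9 in DE and 6 and 7 in WT. A gene without a call may thus still carry the mark. Libraries were compared with exact permutation tests over 6 assignments, in Python 3.11.15 with pandas 2.3.3, NumPy 2.4.6 and SciPy 1.17.1, and code was tested on simulated data. All H3K4me2 libraries are of batch 2. H3K4me3 is of batch 1: the effects of mark and of batch cannot be told apart.

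All members are named, with their regions called in all 4 lists or in both libraries of one genotype and the single calls of a gene; other genes are those with such patterns, in the order of their lists. The 6 genes named as uncalled in the first list, and the single-list calls described, were chosen after their values were seen. The members and lists were chosen with earlier results of these data known.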

Additional observations from a re-analysis of the deposited data

How the results depend on the processing

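With 2 libraries per genotype no p could fall under 0.333, and no difference passed a threshold under any alternative. The difference in intervals, −1 as reported, became 5 with lists of equal length, 1 with a window of 5 kb and 0 for intervals nearest a late neutrophil gene (chosen after seeing the data), and ranged from −3.5 to 1.5 when one library was left out (0.5 without DE replicate 2, 1.5 without WT replicate 1); the cause was not tested. The replicate block gave −1 (exact p = 1) for intervals and 1.5 (exact p = 0.5) for genes with a gene-end call, and changed no call; same-numbered DE and WT libraries share only a number (r = −0.03 between their deviations over 20661 genes). The latter difference was 2.5 with lists of equal length and 0 at a −log10 q of at least 5, where no call was left. Within 2 kb of a gene end it was 1. It was 1 to 2 when one library was left out. Regions of the DE pattern, 1 as reported (S100a8), numbered 0 at a −log10 q of at least 5, 3 with lists of equal length or 50% cover (S100a8, Lcn2 and one at Ptges2), 2 with a window of 50 kb, and 1 to 4 when one library was left out. Shares of all regions are given for the main setting only. Changes in the region counts are thus not shown to be particular to the late neutrophil regions. Regions of the WT pattern, 0 as reported, numbered 1 with a window of 50 kb and 0 to 7 when one library was left out. Regions in all 4 lists, 4 as reported, numbered 5 with merging within 500 bp, 1 with a window of 5 kb and 9 with 50 kb. They numbered 0 for regions nearest a late neutrophil gene. When one library was left out they numbered 4 to 7, since fewer lists must then share them. Calls within 1 kb of the genes' ends rest on 7 to 15 fragments, and those nearest a late neutrophil gene but farther away on 3 to 11; depth is unknown.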

Other observations

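Other genes of the S100 family lie on the same chromosome as S100a8 and S100a9. Of 10 such genes, 3 and 3 were called at a gene end in DE replicates 1 and 2 and 5 and 6 in WT replicates 1 and 2. S100a1, S100a10 and S100a13 were called in all 4 H3K4me2 lists and also carried H3K4me3. S100a6 and S100a11, calcium-binding proteins found in many cell types, were called in the WT pair alone, the opposite of S100a8, a pattern held by 3.03% of all genes. With lists of equal length S100a11 kept the WT pattern, whereas S100a6 was called in WT replicate 2 alone. S100a8, which had no WT call at its start to lose, kept the DE pattern. These differences were not tested, since 2 libraries per genotype allow no p under 0.333.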
